A study of Mus musculus with 6 samples.

Results

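The 42 genes described here make up the working parts of the lysosome: its acid hydrolases and their helper proteins, proteins of its membrane, 5 subunits of its proton pump (the V-ATPase) and the transcription factors Tfeb and Tfe3. They were taken by symbol from a list of lysosomal genes. The rule itself uses no measured value, but the list was chosen with earlier results of these data known. All 42 were found among the 14992 genes of the deposited table, and all 42 passed the filter on low counts that left 12806 genes to test. The counts come from bone marrow of irradiated C57/BL6 mice that carried transplanted whole marrow of Dnmt3a knockout mice. The recipients were given an inhibitor of PI3K alpha and beta at 75 mg/kg (inhibitor libraries 1, 3 and 5) or vehicle (vehicle libraries 1, 2 and 3), in both cases for 21 days. Both groups therefore carry the Dnmt3a knockout and the transplant, and no library from marrow with intact Dnmt3a enters the comparison. The labels call the transplanted cells leukaemic, and an irradiated recipient keeps its own stroma and may keep some of its own long-lived blood cells, so the RNA can hold cells of both mice. The labels do not say that each library came from a mouse of its own, so a p-value here covers only the scatter of these libraries, which may be technical.

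Lysosomes break down proteins, sugars and lipids that reach them by endocytosis, phagocytosis and autophagy. Their enzymes work in an acid lumen that the V-ATPase maintains by pumping protons, and phagocytes, above all macrophages, hold many lysosomes. TFEB and TFE3 are helix-loop-helix factors that bind an extended E-box, the CLEAR element, in the promoters of many lysosomal genes. The kinase complex mTORC1, which lies downstream of PI3K and AKT, phosphorylates both factors at the lysosome and thereby holds them in the cytoplasm.

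The promoters were read for this E-box to describe it. Because it is known from promoters of lysosomal genes, an excess of matches in a list of such genes is no independent result. RefSeq (GRCm38.p6) gave a window of 250 bases before to 50 bases after the start for 36 of the 42 genes. The core letters CACGTG, which read the same on both strands, stood in the windows of 15 of the 36 (41.7%), against 8.09% of all 27025 genes with a window. Those 27025 were not limited to the genes tested here. The extended letters TCACGTGA, also the same on both strands and always holding the core, stood in 8 of the 36 (22.2%), against 1.12% of all genes. A match describes the letters of a window and is no evidence that a factor binds there. The 8 stretches are printed to show the matches and what surrounds them, 5′ to 3′ along the gene's own strand with 10 flanking bases on each side and the motif in capitals.
Ifi30: tccaaaaactTCACGTGAccagacatgc
Ctsa: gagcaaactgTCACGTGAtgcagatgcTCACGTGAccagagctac
Ctsd: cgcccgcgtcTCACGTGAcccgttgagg
Mcoln1: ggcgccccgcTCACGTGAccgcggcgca
Cln3: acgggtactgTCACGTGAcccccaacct
Gla: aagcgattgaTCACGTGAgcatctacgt
Atp6v0d1: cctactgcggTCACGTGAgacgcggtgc
Atp6v1a: tttttttaaaTCACGTGAtaggcttaac
The first base of the match lay 197 bases before the start for Ifi30 (chr8:70766843-70766870), 13 for Ctsa (chr2:164833750-164833794, with both of its matches printed), 99 for Ctsd (chr7:142387909-142387936) and 46 for Mcoln1 (chr8:3500463-3500490). It lay 122 bases before the start for Cln3 (chr7:126583341-126583368), 228 for Gla (chrX:134601216-134601243, the first of its 2 matches), 4 for Atp6v0d1 (chr8:105566051-105566078) and 132 for Atp6v1a (chr16:44139374-44139401). Ctsa and Mcoln1 lie on the plus strand and the other 6 on the minus strand.

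Counts over these genes were high: the smallest was 298 reads in a library, and total counts ran from 28198638 to 35299105 in inhibitor libraries and from 33762431 to 59384880 in vehicle libraries. Values below are CPM, read counts scaled by the TMM-adjusted library size so that libraries can be compared, unless named otherwise. Dnmt3a itself read 15.4 to 20.2 CPM with inhibitor and 17.3 to 24.9 CPM with vehicle (log2 fold change -0.25 ± 0.20, SE; adjusted p = 0.486, edgeR), which checks no label because both groups carry the knockout. Vehicle 1 stood apart from the other vehicles: the chi-square per degree of freedom of its counts was 229 against vehicle 2 and 278 against vehicle 3, and 29.6 between vehicles 2 and 3. All markers listed for neutrophils, B cells and erythroid cells were read, as the marrow label implies. The summed CPM of 15 macrophage markers was 979 to 1280 with inhibitor and 2598 to 8895 with vehicle, with vehicle 1 highest and no marker at 0 in all 6 libraries. Of these 15, 5 fell (edgeR adjusted p under 0.05), against 1.19% of all tested genes. In 14 every inhibitor library lay below every vehicle library, against 16.2% of all tested genes. The 8 monocyte markers summed to 3079 to 4579 CPM with inhibitor and 4058 to 4905 CPM with vehicle, ranges that overlap. Of the 8, 2 fell, Cx3cr1 and Fcgr1, against the same 1.19%, and the median log2 fold change was -1.18. The 10 neutrophil markers summed to 100156 to 119418 CPM with inhibitor and 38687 to 62286 CPM with vehicle. All 7 tested stroma and bone markers had log2 fold changes below 0 (50% of all tested genes). Their median was -1.77, and -0.89 without vehicle 1, and none passed in edgeR. The part of these cell types in the results below was not tested, and in whole marrow fewer cells of a type cannot be told apart from less RNA per cell.

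With the inhibitor, lysosomal hydrolase transcripts were mostly lower and Cd63 was higher. No V-ATPase gene passed the test, nor did Tfeb or Tfe3, which was also true of most tested genes. In the edgeR test over all genes, 4 of the 42 fell (9.52%, against 1.19% of all tested genes) and 1 rose (2.38%, against 0.633%). Ctsz, Ifi30, Naglu and Lipa fell, to between 2.57-fold and 1.93-fold below vehicle, and Cd63 rose 1.80-fold. Of the 42 log2 fold changes 38 were below 0, as were 50% of those of all tested genes, and their median was -0.57, where that of all tested genes was 0.00093. In 26 genes every inhibitor library lay below every vehicle library, which was true of 16.2% of all tested genes, and in 1, Cd63, above (14.4% of all tested genes).

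The number called depended on the test and on single libraries. DESeq2 called 22 lower (7.23% of all tested genes) and 1 higher (4.9%), and limma voom with quality weights 23 lower (11.6%) and 1 higher (10.7%). In edgeR with an adjusted p under 0.10, 19 were lower (4.95%) and 1 higher (3.3%). The authors' deposited table has 20 lower (6.57% of its genes with an adjusted p) and 1 higher, again Cd63 (4.24%). Without vehicle 1, edgeR called 14 lower (4.89% of all genes tested) and 1 higher (3.1%). Without vehicle 2 it called 2 lower, Ctsz and Ifi30 (0.645%), and none higher (0.0538%). Without vehicle 3, or without inhibitor 1, 3 or 5, it called none of the 42 and none of all tested genes. With the replicate number as a block it called none of the 42 (0.0547% of all tested genes lower). Vehicle 2 and inhibitor 5 have no partner of the same number, so that fit rests on libraries 1 and 3 of each group and has little power. Other scalings and filters moved the count little. With DESeq2 size factors, upper-quartile scaling or no filter, 5 were lower (1.25%, 1.29% and 1.03% of all genes tested) and 1 higher (0.687%, 0.617% and 0.48%), and with a filter of 5 CPM in 3 libraries 4 were lower (1.67%) and 1 higher (0.917%). By the unadjusted p over all 6 libraries, under 0.05, 24 were lower (11.9% of all tested genes) and 2 higher (9.68%).

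**Figure D1:**
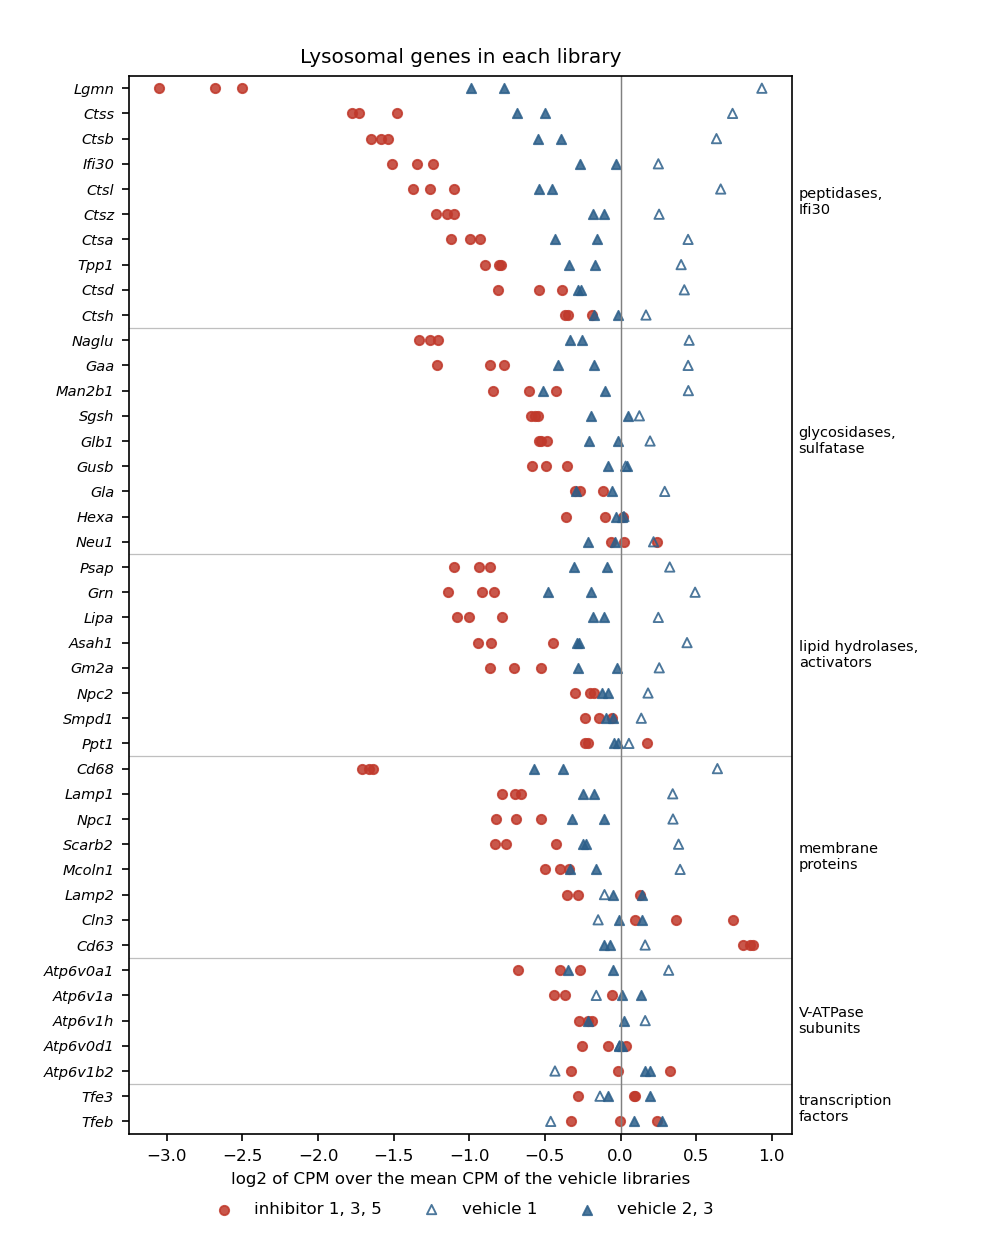
Each row is a lysosomal gene, grouped by role; points give log2 of the CPM in each library over the mean CPM of the 3 vehicle libraries (inhibitor: red circles; vehicle 1: open triangles; vehicles 2 and 3: filled triangles). In 26 genes all inhibitor points lie left of all vehicle points, in Cd63 all lie right, and vehicle 1 is the highest of the 6 libraries in 31 of 42 genes.

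The peptidases were the group with the lowest values. All 10 genes of the group, which includes the thiol reductase Ifi30, had negative log2 fold changes (50% of all tested genes). The median was -1.20, the lowest -2.73 and the highest -0.30. In all 10 every inhibitor library lay below every vehicle library, which was true of 16.2% of all tested genes. Ifi30, which reduces disulphide bonds of proteins taken up for antigen presentation (chr8:70762774-70766663, mm10), read 171, 159 and 141 CPM in inhibitors 1, 3 and 5, against 479, 334 and 394 CPM in vehicles 1, 2 and 3. All inhibitor libraries lay below the lowest vehicle library. Ifi30 fell by 1.36 ± 0.17 on the log2 scale (SE, n = 3 per group; adjusted p = 0.0241, edgeR). Ctsz, a carboxypeptidase of the papain family (chr2:174427493-174439039), read 142, 147 and 136 CPM in inhibitors 1, 3 and 5, against 376, 277 and 292 CPM in vehicles 1, 2 and 3. The inhibitor libraries were close together and stood well under every vehicle library. Ctsz fell by 1.15 ± 0.15 (SE; adjusted p = 0.0272, edgeR). Without vehicle 1 the log2 fold changes were -1.22 for Ifi30 and -1.01 for Ctsz. Exons of Ifi30 and Ctsz overlap those of another gene on the opposite strand (6330537M06Rik and Nelfcd), and the library kit does not mark strand, so reads of such a pair cannot be told apart.

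Lgmn, the asparagine-specific protease legumain, had the lowest log2 fold change of the 42 and the most uneven vehicle values. It read 64.6, 83.5 and 94.8 CPM in inhibitors 1, 3 and 5, against 1025, 269.8 and 314 CPM in vehicles 1, 2 and 3. The groups did not overlap, and vehicle 1 was 3.51 times the mean of vehicles 2 and 3. The log2 fold change was -2.73 ± 0.53 (SE; adjusted p = 0.0542, edgeR), and without vehicle 1 it was -1.85 (edgeR adjusted p = 0.00234). Ctss and Ctsb, endopeptidases of the same family as Ctsz, had values of -1.65 and -1.59, and without vehicle 1 of -1.07 and -1.12. Ctsl, another endopeptidase of that family, had -1.24, and -0.75 without vehicle 1. Ctsa, the carboxypeptidase that also protects beta-galactosidase and sialidase, had -1.01, Tpp1, a tripeptidyl peptidase, -0.83, and Ctsd, the aspartic protease, -0.57 (-0.30 without vehicle 1). Ctsh, an aminopeptidase, lay nearest to 0 in the group, with 265, 238 and 235 CPM in inhibitors 1, 3 and 5 against 341, 300.04 and 269 CPM in vehicles 1, 2 and 3. Its groups were separated by a narrow margin, and its log2 fold change was -0.30 ± 0.14 (SE; adjusted p = 0.254, edgeR).

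The glycosidases, with the sulfatase Sgsh, had a median of -0.51 over 9 genes, 8 of them below 0 (50% of all tested genes). In 5 of the 9 every inhibitor library lay below every vehicle library, against 16.2% of all tested genes. Naglu, which removes N-acetylglucosamine from heparan sulfate (chr11:101070012-101077672), read 10.1, 11.1 and 10.7 CPM in inhibitors 1, 3 and 5, against 35.1, 20.3 and 21.4 CPM in vehicles 1, 2 and 3. No inhibitor library came near the lowest vehicle library. Naglu fell by 1.26 ± 0.23 (SE; adjusted p = 0.0482, edgeR), and its value was -0.97 without vehicle 1. Sgsh, which takes the sulfate off the same polymer, read 14.2, 14.4 and 13.99 CPM in inhibitors 1, 3 and 5, against 22.9, 18.4 and 21.8 CPM in vehicles 1, 2 and 3. The groups did not overlap, and the log2 fold change was -0.57 ± 0.14 (SE; adjusted p = 0.0832, edgeR). Gusb, beta-glucuronidase, read 140.4, 128 and 119.6 CPM in inhibitors 1, 3 and 5, against 183, 169 and 185 CPM in vehicles 1, 2 and 3. In Gusb vehicle 1 did not stand out, and the gene's log2 fold change of -0.47 ± 0.12 (SE; adjusted p = 0.079, edgeR) was -0.46 without that library. Gaa, which splits glycogen, had -0.94, Man2b1, an alpha-mannosidase, -0.61 (-0.33 without vehicle 1), and Glb1, beta-galactosidase, -0.51. Gla, alpha-galactosidase, and Hexa, the alpha subunit of beta-hexosaminidase, had -0.23 (-0.056 without vehicle 1) and -0.14, with groups that overlapped. Neu1, the lysosomal sialidase, read 106, 91.2 and 85.9 CPM in inhibitors 1, 3 and 5, against 104, 77.2 and 87.3 CPM in vehicles 1, 2 and 3. The groups lay across each other, with a log2 fold change of 0.08 ± 0.15 (SE; adjusted p = 0.797, edgeR), and 0.20 without vehicle 1.

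The lipid hydrolases and the helper proteins of the lumen had a median of -0.71 over 8 genes, all below 0 (50% of all tested genes). In 6 of the 8 the groups were apart with the inhibitor lower, against 16.2% of all tested genes. Lipa, the acid lipase that frees cholesterol from its esters (chr19:34492318-34527474), read 80.2, 65.5 and 69.2 CPM in inhibitors 1, 3 and 5, against 165, 128 and 122 CPM in vehicles 1, 2 and 3. Every inhibitor library lay below every vehicle library. Lipa fell by 0.95 ± 0.15 (SE; adjusted p = 0.0417, edgeR), and its value was -0.81 without vehicle 1. Psap, the precursor of the saposins that present sphingolipids to their hydrolases, read 1855, 1768 and 1577 CPM in inhibitors 1, 3 and 5, against 4230.03, 2725 and 3172 CPM in vehicles 1, 2 and 3. It was the most abundant of the 42 per length, its groups did not overlap, and its log2 fold change was -0.96 ± 0.20 (SE; adjusted p = 0.0615, edgeR). Gm2a, the activator that lifts GM2 ganglioside for beta-hexosaminidase, read 208, 184 and 165 CPM in inhibitors 1, 3 and 5, against 358, 247 and 294 CPM in vehicles 1, 2 and 3. The groups were again apart, with a log2 fold change of -0.69 ± 0.17 (SE; adjusted p = 0.0813, edgeR). Grn, progranulin, had -0.96, and Asah1, acid ceramidase, -0.73, both with groups that did not overlap. Without vehicle 1 they had -0.63 and -0.45. Npc2, which carries cholesterol to the membrane protein Npc1, and Smpd1, acid sphingomyelinase, had -0.23 and -0.14, and without vehicle 1 -0.13 and -0.070. Ppt1, which removes palmitate from proteins, read 156, 118 and 119 CPM in inhibitors 1, 3 and 5, against 144, 137 and 134 CPM in vehicles 1, 2 and 3. Its groups overlapped, with a log2 fold change of -0.08 ± 0.14 (SE; adjusted p = 0.779, edgeR), and -0.05 without vehicle 1.

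**Figure D2:**
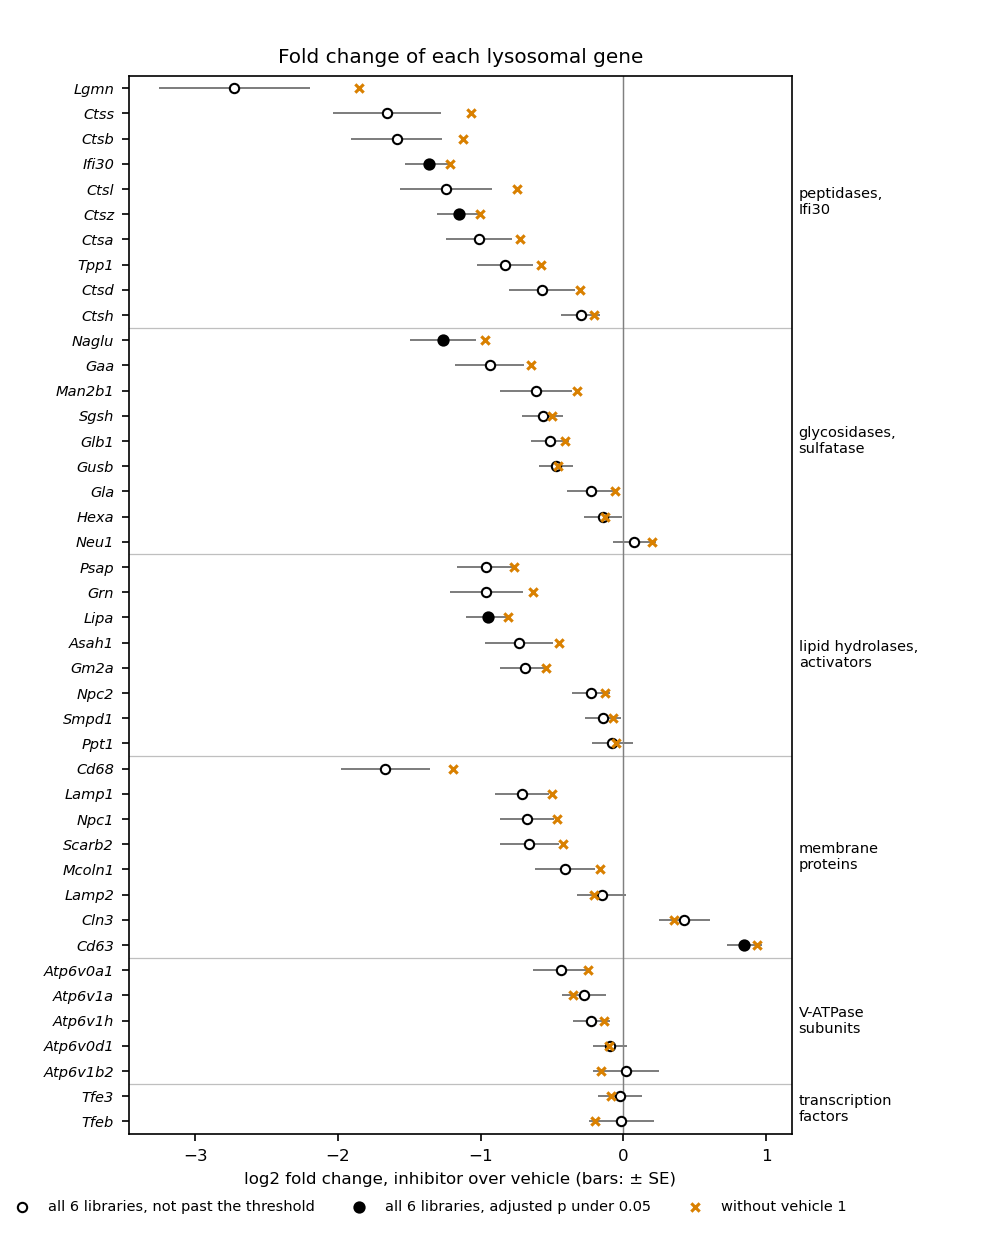
Log2 fold change of each of the 42 genes, inhibitor over vehicle, with its standard error from the edgeR fit over 6 libraries (filled: adjusted p under 0.05; open: not past it), and the value without vehicle 1 (crosses). Filled points are Ctsz, Ifi30, Naglu and Lipa below 0 and Cd63 above 0, and Lgmn has the widest gap between its values with and without vehicle 1, at -2.73 and -1.85.

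Proteins of the lysosomal membrane were split, with 6 of 8 genes below 0 (50% of all tested genes) and 2 above. Cd63, a tetraspanin of late endosomes, lysosomes and the granules of blood cells (chr10:128900989-128912822), read 257, 248 and 259.6 CPM in inhibitors 1, 3 and 5, against 158, 135 and 131 CPM in vehicles 1, 2 and 3. All inhibitor libraries lay above the highest vehicle library. Cd63 rose by 0.85 ± 0.12 on the log2 scale (SE; adjusted p = 0.0342, edgeR), and its value was 0.94 without vehicle 1. Cd68, a heavily glycosylated membrane protein widely used as a macrophage marker, read 76.5, 77.9 and 74.1 CPM in inhibitors 1, 3 and 5, against 378, 163 and 186 CPM in vehicles 1, 2 and 3. The inhibitor libraries were nearly level and vehicle 1 was 2.16 times the mean of the other vehicles. The log2 fold change was -1.67 ± 0.31 (SE; adjusted p = 0.0508, edgeR). Cd68 passed in 7 of 15 alternative settings. These were DESeq2, limma voom, an adjusted p under 0.10, and edgeR with DESeq2 size factors, upper-quartile scaling, no filter or no vehicle 1. Without vehicle 1 its value was -1.20 (edgeR adjusted p = 0.0023).

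Lamp1, a main glycoprotein of the lysosomal membrane, read 601, 583 and 549.9 CPM in inhibitors 1, 3 and 5, against 1203, 799 and 839 CPM in vehicles 1, 2 and 3. The groups did not overlap, and its log2 fold change was -0.71 ± 0.19 (SE; adjusted p = 0.0904, edgeR). Lamp2, its relative with a part in chaperone-mediated autophagy, read 674, 507 and 483 CPM in inhibitors 1, 3 and 5, against 573, 682 and 596 CPM in vehicles 1, 2 and 3. The groups overlapped, with a log2 fold change of -0.15 ± 0.17 (SE; adjusted p = 0.631, edgeR). Npc1, the cholesterol exporter, had -0.68, Scarb2, the receptor that carries glucocerebrosidase to lysosomes, -0.66 (-0.42 without vehicle 1), and Mcoln1, a calcium channel, -0.41 (-0.17 without vehicle 1). Cln3, a membrane protein lost in juvenile Batten disease, had 0.43 ± 0.18 (SE; adjusted p = 0.229, edgeR) with groups that overlapped.

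**Figure D3:**
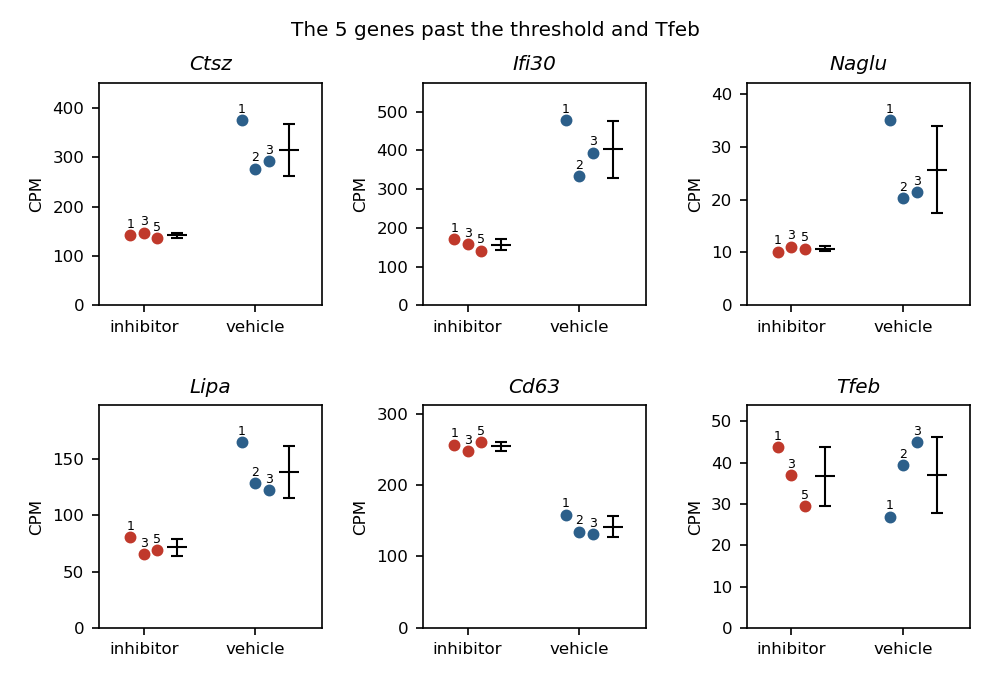
CPM in each library for the 5 genes past the threshold and for Tfeb, inhibitor libraries left of vehicle libraries; numbers are the library numbers, and the bar beside each group is its mean ± SD (n = 3). Ctsz, Ifi30, Naglu and Lipa lie lower in every inhibitor library, Cd63 higher, and the 2 groups of Tfeb lie across each other.

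The 5 V-ATPase genes had a median of -0.22, none passed, and in none were the groups apart. At an unadjusted p under 0.05 none was lower or higher, and DESeq2 called none. Over all tested genes 1.19% fell and 0.633% rose in edgeR, and DESeq2 called 7.23% lower and 4.9% higher. The groups were apart in 16.2% (lower) and 14.4% (higher), and 11.9% and 9.68% had an unadjusted edgeR p under 0.05. Against such shares, no call among 5 genes does not set them apart. Atp6v0a1, a membrane subunit through which protons pass, read 81.3, 74.2 and 61.4 CPM in inhibitors 1, 3 and 5, against 122, 77.0 and 94.7 CPM in vehicles 1, 2 and 3. Its log2 fold change was -0.44 ± 0.19 (SE; adjusted p = 0.244, edgeR), and -0.25 without vehicle 1. Atp6v1a, the catalytic subunit that splits ATP, read 273, 219.6 and 209 CPM in inhibitors 1, 3 and 5, against 254, 311 and 286 CPM in vehicles 1, 2 and 3. Of the tests run, limma voom with quality weights alone called it lower (adjusted p = 0.0264), and its edgeR value was -0.28 ± 0.15 (SE; adjusted p = 0.327). Atp6v1h, a regulatory subunit, read 57.0, 58.2 and 54.8 CPM in inhibitors 1, 3 and 5, against 74.2, 67.4 and 57.1 CPM in vehicles 1, 2 and 3 (log2 fold change -0.22 ± 0.13, SE; adjusted p = 0.342, edgeR; -0.14 without vehicle 1). Atp6v1b2, the other subunit of the ATP-splitting ring, read 423, 334 and 269 CPM in inhibitors 1, 3 and 5, against 250.1, 386 and 377 CPM in vehicles 1, 2 and 3. Its values spread as widely within a group as between them, with a log2 fold change of 0.02 ± 0.23 (SE; adjusted p = 0.972, edgeR), and -0.16 without vehicle 1. Atp6v0d1, a subunit that joins the pump's rotor, had -0.09.

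The transcription factors showed no difference that this design could resolve. Tfeb read 43.8, 36.9 and 29.5 CPM in inhibitors 1, 3 and 5, against 26.9, 39.4 and 44.9 CPM in vehicles 1, 2 and 3 (log2 fold change -0.01 ± 0.23, SE; adjusted p = 0.977, edgeR). Tfe3 read 79.5, 78.9 and 60.95 CPM in inhibitors 1, 3 and 5, against 67.6, 70.1 and 85.01 CPM in vehicles 1, 2 and 3 (log2 fold change -0.02 ± 0.15, SE; adjusted p = 0.944, edgeR). The groups overlapped for both. Without vehicle 1 the values were -0.20 for Tfeb and -0.09 for Tfe3. Vehicle 1 was the lowest of the vehicles for each, where it was the highest of them for 34 of the 42 genes (46.6% of all tested genes). These are transcript levels and say nothing of where the proteins were or how they were modified.

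How strongly the vehicles differed among themselves varied from gene to gene. Vehicle 1 was at least 1.5 times the mean of vehicles 2 and 3 for 15 of the 42 genes, and the median ratio was 1.32. Vehicle 1 was the highest of all 6 libraries for 31 of the 42, against 33.5% of all tested genes. For the summed macrophage markers the ratio of vehicle 1 to the mean of vehicles 2 and 3 was 3.27, and for the 6 erythroid markers 3.30. The ratio was also high for 4 megakaryocyte markers (4.03) and for stroma and bone markers (2.85). For T and NK, monocyte, neutrophil, B lymphoid and osteoclast markers the ratio was 0.90, 0.84, 0.66, 0.55 and 0.51. It was 3.51 for Lgmn, 2.52 for Ctss, 2.23 for Ctsl, 2.16 for Cd68 and 2.14 for Ctsb. None of these passed the main edgeR test over all 6 libraries, while DESeq2 and limma voom called each of them lower. Among the genes that fell in the main test the ratio was 1.31 for Ifi30, 1.32 for Ctsz, 1.31 for Lipa and 1.68 for Naglu. Summed over the 42 genes, CPM were 10145, 9277 and 8497 in inhibitors 1, 3 and 5, against 21351, 13158 and 14319 in vehicles 1, 2 and 3. Every inhibitor sum lay below the lowest vehicle sum, that of vehicle 2. These sums lean on the most abundant genes. Psap, Ctsb, Ctsd and Ctss had mean vehicle CPM of 3376, 2041, 1259 and 964, and none of them passed the main edgeR test.

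**Figure D4:**
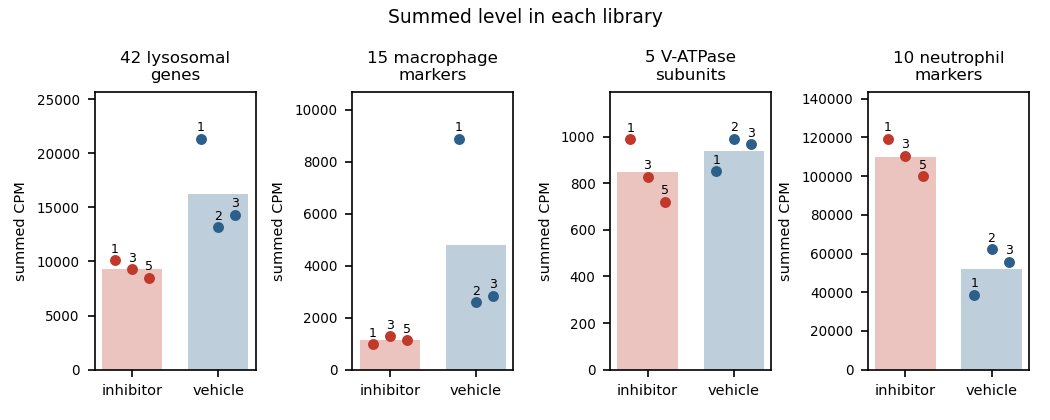
Summed CPM per library for the 42 lysosomal genes, 15 macrophage markers, 5 V-ATPase subunits and 10 neutrophil markers; points are libraries with their numbers, bars are group means, inhibitor left of vehicle. The lysosomal and macrophage sums are lower in all inhibitor libraries and highest in vehicle 1, the V-ATPase sums overlap between groups, and the neutrophil sums are higher in all inhibitor libraries.

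Levels were compared between genes per length, as TPM (counts divided by the deposited gene length and scaled to the same total in every library), within the vehicle libraries. Psap was the highest at 2497 ± 577 TPM (SD, n = 3), followed by Ctss at 1429.5 ± 822 TPM and Ctsd at 1299.8 ± 374 TPM. The distance of Ctss to Ctsd was within its spread over the vehicle libraries, and its distance to Psap was not. Sgsh was the lowest at 9.85 ± 1.32 TPM, with Mcoln1 at 19.6 ± 5.37 TPM and Naglu at 20.9 ± 6.57 TPM next, a pair that did not differ beyond its spread. The genes that fell were thus spread over the range of levels, with Ifi30 at 829 ± 156 TPM, Ctsz at 457 ± 77.0 TPM and Lipa at 93.96 ± 14.7 TPM.

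Genes with and without the promoter letters overlapped in their log2 fold changes. The 15 genes with CACGTG had a median log2 fold change of -0.57 (lowest -2.73, highest 0.43), and the 21 with a window but without it had -0.47 (lowest -1.67, highest 0.85). The 8 genes with TCACGTGA had a median of -0.34 (lowest -1.36, highest 0.43), and the 28 without it -0.64. These are descriptions of the listed genes, with no test. The windows of genes past the threshold follow so that the cases can be compared: Ifi30 holds the extended form, Naglu the core alone, and Ctsz, with the smallest p of those without a core, neither. Cd63 is added as the only gene that rose, and its window, which starts within the annotated gene, holds neither. Capitals mark the motif, and the strand printed is that of the gene, 5′ to 3′.
Ifi30: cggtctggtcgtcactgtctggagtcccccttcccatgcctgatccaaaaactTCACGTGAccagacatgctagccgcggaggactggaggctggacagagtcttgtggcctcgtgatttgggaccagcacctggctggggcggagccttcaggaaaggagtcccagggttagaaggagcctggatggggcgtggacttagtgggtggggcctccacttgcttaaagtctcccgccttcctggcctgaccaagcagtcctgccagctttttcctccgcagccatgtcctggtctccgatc
Naglu: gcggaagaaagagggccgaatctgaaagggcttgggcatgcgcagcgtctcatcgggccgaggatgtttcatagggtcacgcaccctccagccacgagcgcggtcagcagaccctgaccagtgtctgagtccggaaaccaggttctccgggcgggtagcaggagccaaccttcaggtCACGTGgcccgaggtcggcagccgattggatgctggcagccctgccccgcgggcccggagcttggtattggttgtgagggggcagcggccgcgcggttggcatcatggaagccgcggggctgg
Ctsz: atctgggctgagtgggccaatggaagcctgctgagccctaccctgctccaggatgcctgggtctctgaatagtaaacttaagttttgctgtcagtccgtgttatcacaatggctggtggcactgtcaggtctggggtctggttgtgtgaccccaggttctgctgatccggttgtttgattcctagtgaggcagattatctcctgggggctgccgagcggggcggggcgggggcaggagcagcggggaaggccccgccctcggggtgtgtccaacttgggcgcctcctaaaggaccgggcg
Cd63: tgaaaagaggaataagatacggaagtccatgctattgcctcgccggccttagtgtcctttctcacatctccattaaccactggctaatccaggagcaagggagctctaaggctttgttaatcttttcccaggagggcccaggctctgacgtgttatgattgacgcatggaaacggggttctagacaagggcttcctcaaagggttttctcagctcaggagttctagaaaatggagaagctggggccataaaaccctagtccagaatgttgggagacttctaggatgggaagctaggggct
The windows are chr8:70766614-70766913 (minus strand) for Ifi30, chr11:101069844-101070143 (plus) for Naglu, chr2:174438990-174439289 (minus) for Ctsz and chr10:128909095-128909394 (plus) for Cd63. The core of Naglu began 73 bases before the start.

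Other genes of the lysosome were read beside the 42. They were listed from general knowledge, but with earlier results of these data known, so they are no independent check. Over all tested genes 50% lay below 0, 1.19% fell in edgeR and 9.68% were higher at its unadjusted p under 0.05. Of 34 tested hydrolases outside the 42, 30 lay below 0 (median log2 fold change -0.56), and 1 fell, Ctsc. Ctsc, the peptidase that activates the serine proteases of blood-cell granules, read 311, 241 and 236 CPM in inhibitors 1, 3 and 5, against 724, 795 and 716 CPM in vehicles 1, 2 and 3, with vehicle 1 unremarkable. It fell by 1.51 ± 0.16 (SE; adjusted p = 0.0234, edgeR). Without vehicle 1 the median of these hydrolases was -0.32. The highest value was 0.37, 2 were higher at an unadjusted p under 0.05, and Pcyox1, which oxidises prenylcysteine, lay nearest to 0 with -0.05. Of 25 other membrane proteins 20 were below 0 with a median of -0.20 (-0.11 without vehicle 1), and 1 fell, Cln8, a sorting factor for lysosomal enzymes in the endoplasmic reticulum. Cln8 read 28.9, 32.0 and 30.8 CPM in inhibitors 1, 3 and 5, against 75.7, 55.8 and 64.4 CPM in vehicles 1, 2 and 3. It fell by 1.10 ± 0.14 (SE; adjusted p = 0.0265, edgeR), while Abca2, a lipid transporter, had -0.01.

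The remaining lists had medians nearer to 0. Over all tested genes, 11.9% were lower and 9.68% higher at an unadjusted edgeR p under 0.05. DESeq2 called 7.23% of them lower and 4.9% higher. Among 13 other V-ATPase subunits, 8 had positive and 5 negative log2 fold changes (median 0.13). None passed in edgeR, 3 were higher and none lower at an unadjusted p under 0.05, and DESeq2 called 2 higher. Atp6v0b, a subunit of the proton-carrying ring, read 185, 169.95 and 183 CPM in inhibitors 1, 3 and 5, against 139, 141 and 123 CPM in vehicles 1, 2 and 3, without overlap (log2 fold change 0.41 ± 0.11, SE; adjusted p = 0.0995, edgeR). Atp6v1c1, of the pump's stalk, had -0.0028. Among 27 genes that deliver enzymes to lysosomes, such as the mannose-6-phosphate receptors, the median was -0.05 and none passed. At an unadjusted p under 0.05, 2 of them were lower and none higher, DESeq2 called none, and the adaptor subunit gene Ap1g1 had -0.02. Among 20 genes of nutrient sensing on lysosomes and the other factors related to Tfeb, the median was 0.11 (0.046 without vehicle 1) and none passed in edgeR, with 2 lower and 1 higher at an unadjusted p under 0.05, and DESeq2 called 2 lower. Mitf, a factor related to Tfeb, read 11.8, 9.01 and 8.44 CPM in inhibitors 1, 3 and 5, against 19.1, 15.1 and 13.7 CPM in vehicles 1, 2 and 3, without overlap (log2 fold change -0.71 ± 0.20, SE; adjusted p = 0.105, edgeR). Lamtor1, which anchors the complex that recruits mTORC1, had -0.01.

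**Figure D5:**
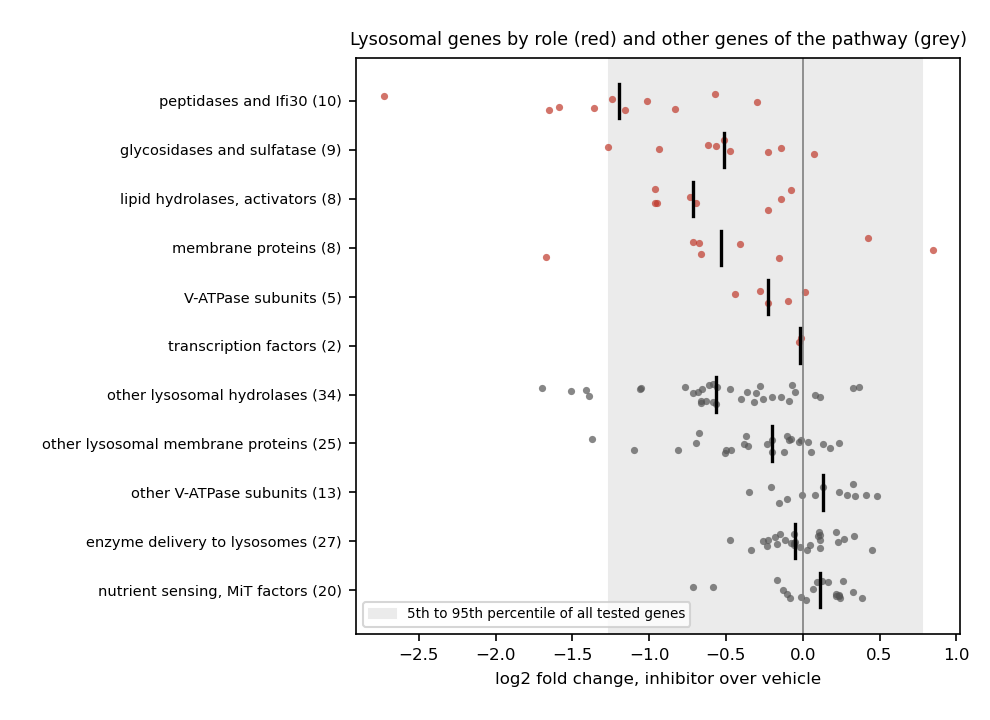
Log2 fold change, inhibitor over vehicle, of every tested gene in each role of the 42 (red) and in 5 lists of other lysosomal genes (grey), with the number of genes in brackets and the median as a black bar. The grey band spans the 5th to 95th percentile of all 12806 tested genes (-1.26 to 0.78); peptidases (median -1.20) lie lowest and the other V-ATPase subunits (median 0.13) highest.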

How the data were processed

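RNA was measured in 6 bone marrow libraries, 3 per group. Amplified cDNA (SMART-Seq v4) went into Nextera XT libraries, which keep no strand, per the labels' protocols. The submitters' processing notes name STAR, featureCounts and mm10. The authors deposited raw read counts per gene, gene lengths in bases, and a log2 fold change and an adjusted p-value of their own, whose test the sources used here do not name. The 14992 empty lines between genes were dropped.

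The test was edgeR's quasi-likelihood F-test (version 4.0.16, R 4.3.3) with group as its term, after filterByExpr and TMM scaling. Its p-values were adjusted over 12806 genes by Benjamini-Hochberg, with a threshold of 0.05. Fold changes are inhibitor over vehicle, and the standard error is the size of the log2 fold change divided by the square root of F. The biological coefficient of variation was 25.2%. The genes of interest and all lists were chosen with earlier results of these data known. Genes given in full are those past the threshold, the 3 with the smallest p and the 1 nearest to 0 in each role, Tfeb and Tfe3. Of the other lists, genes are named where called or nearest to 0. Atp6v0b and Mitf, and the windows of Naglu and Cd63, were chosen after their values were seen. Exons of 15 of the 42 genes overlap another gene in GENCODE M21 (GRCm38), 13 of them on the opposite strand, so their counts carry that uncertainty. Gene positions are from the same annotation. Promoter sequences are from RefSeq (GRCm38.p6). Tried in its place were DESeq2 (1.42.0), limma voom with quality weights (3.58.1), 3 other scalings (DESeq2 size factors, upper quartile, and TMM without the 10 most abundant genes), no filter or one of 5 CPM in at least 3 libraries, a threshold of 0.10, a block on replicate number, and fits that leave out a library.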

Additional observations from a re-analysis of the deposited data

How the results depend on the processing

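The median of the 42 log2 fold changes stayed below 0 under every alternative, from -0.67 without vehicle 2 to -0.41 without vehicle 1. The counts of called genes did not hold. DESeq2 called 926 of all genes lower and 628 higher, limma voom with quality weights 1483 and 1374, and an adjusted p under 0.10 in edgeR 634 and 422. Of the 42, the adjusted p under 0.10 called 19 lower (4.95% of all genes). DESeq2 called 22 and voom 23 lower. Leaving out single libraries gave 0 to 633 genes lower and 0 to 401 higher among all, and 0 to 14 lower and 0 to 1 higher among the 42. Fewer libraries were then tested, yet the count was largest without vehicle 1.

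Over all tested genes DESeq2 called 7.23% lower and 4.9% higher, and voom 11.6% and 10.7%. An adjusted p under 0.10 called 4.95% lower and 3.3% higher, and upper-quartile scaling 1.29% lower. Fits with single libraries left out called 0 to 4.89% lower. Of the other hydrolases, 10, 14 and 9 were called lower by DESeq2, voom and an adjusted p under 0.10, 2 with upper-quartile scaling, and 0 to 7 with single libraries left out. Voom also called 1 higher, and moved their median to -0.31 (-0.60 to -0.32 with libraries left out). Of the other membrane proteins, 4, 5 and 4 were called lower by the same 3 settings, and 0 to 4 with libraries left out. Of the other V-ATPase subunits, DESeq2 called 2 higher, voom 4 higher and 1 lower, and the adjusted p under 0.10 called 1 higher. Of the delivery genes, voom called 1 lower, and 0 to 1 were called with libraries left out. Of the nutrient sensing genes, DESeq2 called 2 lower, voom 2, the adjusted p under 0.10 called 1, and 0 to 1 were called with libraries left out. Voom gave that list a median of 0.025.

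Replicate numbers 1 and 3 occur in both groups, and the deviations of same-numbered libraries correlated at -0.44 and -0.05. So few values cannot decide whether same-numbered libraries share more than a number. With the replicate block edgeR called 7 of all genes lower (0.0547%) and 0 higher. It called 0 of the 42 lower and 0 higher, 0 of the other hydrolases and 0 of the other membrane proteins. The blocked fit draws its fold changes from numbers 1 and 3 alone, so its few calls cannot tell a missing difference from lost power.

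Directions turned for genes near 0 alone. Lamp2 had 0.0015 with the replicate block. With single libraries left out, Ppt1 ran from -0.22 to 0.0023 (without inhibitor 3), Neu1 from -0.020 (without vehicle 2) to 0.20 and Atp6v1b2 from -0.16 (without inhibitor 1 or vehicle 1) to 0.16. Voom gave Atp6v1b2 -0.17. Tfeb had 0.21 with the replicate block and -0.20 to 0.15 with libraries left out, and Tfe3 0.063 and -0.087 to 0.095. The cause was not tested for any of these.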
